A study of Mus musculus with 12 samples.

Results

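The Hox genes of the mouse hypothalamus were followed across 4 treatments. A gene was taken as a member when its symbol in the platform annotation was Hox followed by a cluster letter and a number and when a probe set carried that symbol alone. This gave 35 Hox genes of 17380 single-symbol genes, 9 in the Hoxa cluster on chromosome 6, 9 in the Hoxb cluster on chromosome 11, 8 in the Hoxc cluster on chromosome 15 and 9 in the Hoxd cluster on chromosome 2. A further probe set that carried both Hoxb7 and Hoxb8 was not used. Each member had 1 probe set.

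The arrays were of the Affymetrix Mouse Gene 1.0 ST type, 12 in all, and 3 were used for each of 4 groups of male C57Bl/6J mice killed at 21 weeks of age. ASP mice received the sweetener aspartame at 46 mg/kg body weight in the drinking water, beginning in utero through the mother and continuing into adulthood. ASP+CGP mice received the same aspartame together with CGP 39551, a drug that competes with glutamate at NMDA receptors, which was given through the mother at 5 mg/kg from conception to postnatal day 28. CGP mice received the antagonist over the same period and no aspartame, and CON mice received neither compound. Hypothalamic RNA was pooled within each group before hybridization. The 3 arrays of a group are therefore repeats of 1 pool, and the p-values given here measure the spread between arrays, not between mice.

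Hox genes encode homeodomain transcription factors that give the embryo its order along the head to tail axis. Within each cluster the genes lie in the order in which they are used, from paralogue group 1 at the 3′ end, active towards the hindbrain, to paralogue group 13 at the 5′ end, active towards the tail, and genes of the same paralogue group in different clusters descend from a common ancestral gene. The forebrain, from which the hypothalamus forms, develops in front of the domain of Hox expression, whereas hindbrain, spinal cord and many adult tissues of the trunk keep expressing the Hox genes of their axial level.

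The clusters also hold microRNAs that bear on Hox messages. Both miR-196 forms are shown because they lie within the Hoxa and Hoxc clusters and are known to direct cleavage of the Hoxb8 message. The capitals mark the seed, bases 2 to 8, which is the same in both, and the sequences are those of RefSeq on GRCm38.p6, written 5′ to 3′.
mmu-miR-196b-5p, chr6:52230129-52230150, minus strand: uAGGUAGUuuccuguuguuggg
mmu-miR-196a-5p, chr15:102973365-102973386, plus strand: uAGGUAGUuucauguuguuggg
The third microRNA of the clusters that was measured, miR-615, has another seed and is shown for comparison.
mmu-miR-615-3p, chr15:103014969-103014990, plus strand: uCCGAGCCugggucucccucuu

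Values are log2 signals after robust multiarray averaging (RMA), a scale on which a difference of 1 is a doubling, and signals close to 6 are near the low end of these arrays. A gene was kept when its signal reached 6 on at least 3 arrays, which held for 34 of the 35 Hox genes and for 17186 genes in all. Hoxc4 was not kept, with 5.99, 5.82 and 6.08 on the ASP arrays, 5.76, 5.69 and 5.95 on the ASP+CGP arrays, 5.86, 5.77 and 5.87 on the CGP arrays and 5.86, 5.78 and 5.93 on the CON arrays. The kept Hox genes were weak signals as a family. Over all arrays their values lay between 5.70 and 8.66, and 26 of 34 (76.5%) had a CON mean under 7, against 17.4% of all kept genes. Hoxa5, Hoxc6 and Hoxd8 were under 6 on at least 1 array. The spread between arrays of a pool, as the pooled SD of a Hox gene, had a median of 0.0864 and ranged from 0.0435 to 0.189.

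Arrays of the same pool correlated at 0.992 to 0.997 over all genes and arrays of different pools at 0.986 to 0.995. Farthest from their pools lay ASP+CGP array 3 and CON array 3, with an SD of their deviations of 0.0996 and 0.0903, against 0.0490 to 0.0701 on the others. All 19 measured hypothalamus markers reached 6 on all 12 arrays. Markers of other tissues also moved between the pools, and their values stand beside the Hox results below. Genes were compared with limma over all 12 arrays, adjusted by Benjamini-Hochberg over all genes of a contrast, and are called here at an adjusted p under 0.05 with a fold change over 1.4. With 3 arrays against 3, an exact permutation test cannot go below 0.1.

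The comparison of ASP with CON asks what lifelong aspartame changed. Hoxb9, Hoxc8 and Hoxc6 were called higher in ASP, and no Hox gene was called lower. Hoxd8, Hoxb6 and Hoxa6 were also higher at an adjusted p under 0.05, with smaller folds. Called genes were thus 3 of 34 Hox genes, against 1.05% of all genes in either direction and 1.02% of all genes higher. At the adjusted p alone there were 6 of 34, all higher, against 4.08% of all genes in either direction and 2.92% higher. The median log2 fold change of the 34 genes was 0.08, against -0.01 over all genes. Of them, 24 (70.6%) lay above 0, against 43.6% of all genes. The 24 include Hoxa5, which the filter kept only through ASP. Without CON array 3 the median was 0.13. The 3 calls held when any single array was left out, whereas Hoxb6 and Hoxa6 both missed the adjusted p without ASP array 1, ASP array 3, CON array 1 or CON array 2, and 1 of them missed it without ASP array 2 or CON array 3.

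Hoxb9, a paralogue group 9 gene that takes part in patterning the thoracic skeleton and spinal cord, had 8.62, 8.59 and 8.66 on the ASP arrays, 7.80, 7.92 and 7.87 on the ASP+CGP arrays, 7.77, 7.77 and 7.86 on the CGP arrays and 7.82, 7.54 and 7.67 on the CON arrays. Every ASP array was above all 9 others, while the arrays of the other pools overlapped. The mean was 8.62 ± 0.03 in ASP and 7.68 ± 0.14 in CON (SD, n = 3 arrays each), a log2 fold change of 0.95 ± 0.06 (SE, adjusted p = 2.0e-07), or 1.93-fold.

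Hoxc8, a paralogue group 8 gene that helps to set the identity of thoracic segments and of motor neurons supplying the forelimb, had 7.51, 7.34 and 7.47 on the ASP arrays, 6.70, 6.72 and 6.53 on the ASP+CGP arrays, 6.75, 6.68 and 6.71 on the CGP arrays and 6.64, 6.61 and 6.57 on the CON arrays. The ASP arrays again stood above all others without overlap. Mean Hoxc8 was 7.44 ± 0.09 in ASP and 6.61 ± 0.04 in CON (SD, n = 3 arrays each), and the log2 fold change was 0.83 ± 0.06 (SE, adjusted p = 3.3e-07), or 1.78-fold.

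Hoxc6, its neighbour in the cluster and a gene of the brachial and thoracic levels, had 6.63, 6.76 and 6.85 on the ASP arrays, 6.14, 6.13 and 6.17 on the ASP+CGP arrays, 6.34, 5.93 and 6.11 on the CGP arrays and 6.04, 6.29 and 5.70 on the CON arrays. The ASP arrays were higher than all others, and the CON and CGP arrays were widely scattered, with 1 of each under 6. Its log2 fold change was 0.74 ± 0.12 (SE, adjusted p = 0.0026), or 1.67-fold, the least precise of the called changes.

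**Figure D1:**
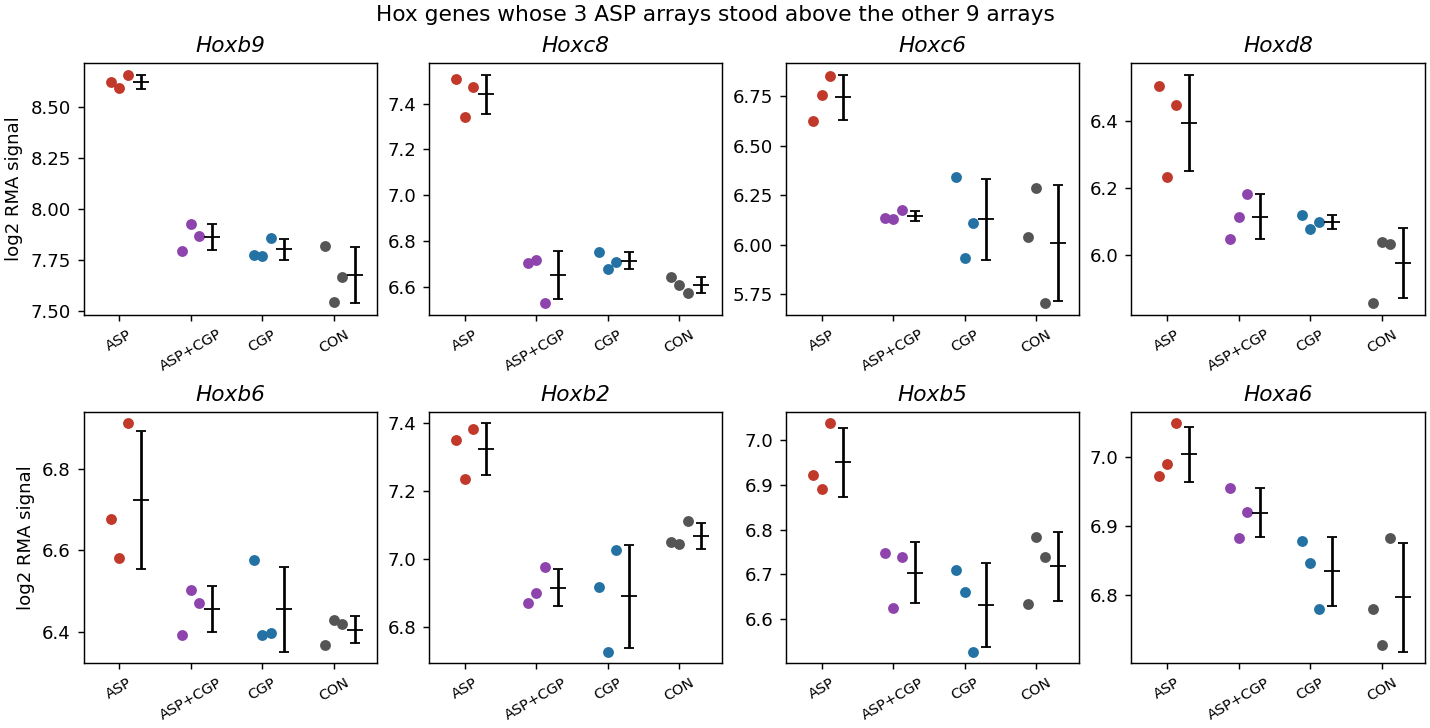
Log2 signal of Hox genes on each array, a panel per gene with its own vertical axis, for ASP, ASP+CGP, CGP and CON from left to right. Points are single arrays, dashes are the mean of the 3 arrays of a pool and capped bars are their SD. Hoxb9 lay at 8.59 to 8.66 on the ASP arrays and at 7.92 or less on all others.

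Hoxd8, the paralogue of Hoxc8 in the Hoxd cluster, had 6.51, 6.23 and 6.45 on the ASP arrays, 6.05, 6.11 and 6.18 on the ASP+CGP arrays, 6.12, 6.08 and 6.10 on the CGP arrays and 5.85, 6.04 and 6.03 on the CON arrays. The ASP arrays were above all others and the CON arrays below all others. The log2 fold change of ASP over CON was 0.42 ± 0.07 (SE, adjusted p = 0.0023), short of the fold threshold at 1.34-fold. Without ASP array 2 it was 0.50, which passes that threshold.

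Hoxb6, of paralogue group 6 like Hoxc6, had 6.68, 6.58 and 6.91 on the ASP arrays, 6.39, 6.50 and 6.47 on the ASP+CGP arrays, 6.58, 6.39 and 6.40 on the CGP arrays and 6.37, 6.43 and 6.42 on the CON arrays. The lowest ASP array was only just above the highest CGP array. Its log2 fold change over CON was 0.32 ± 0.07 (SE, adjusted p = 0.027). Hoxa6, the third member of that paralogue group, had 6.97, 6.99 and 7.05 on the ASP arrays, 6.95, 6.88 and 6.92 on the ASP+CGP arrays, 6.88, 6.85 and 6.78 on the CGP arrays and 6.78, 6.73 and 6.88 on the CON arrays. Here too the ASP arrays stood above all others, but by a narrow margin, and the log2 fold change was 0.21 ± 0.05 (SE, adjusted p = 0.027).

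The members were then arranged by paralogue group. Of the 6 kept genes of groups 1 to 3, the anterior genes of hindbrain levels, 0 passed the adjusted p, and their median log2 fold change was 0.05. Of the 13 genes of groups 4 to 8, the central genes of cervical and thoracic levels, 5 passed and 12 lay above 0, with a median of 0.22. Hoxa5, 1 of these 12, reached a signal of 6 on 4 arrays, all 3 of ASP and 1 of CON, so that the filter kept it only through ASP and its sign is no support. Of the 15 posterior genes of groups 9 to 13, which pattern lower thoracic to caudal levels and the limbs, Hoxb9 alone passed, and the median was 0.00. All 3 kept genes of group 6 and both of group 8 passed, and their medians were 0.32 and 0.63. Group 9 was split, since Hoxa9, Hoxc9 and Hoxd9 had log2 fold changes of -0.01, 0.02 and -0.03 beside the 0.95 of Hoxb9. These classes describe the clusters and were not tested against each other.

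By cluster, the medians were 0.00 for Hoxa, 0.21 for Hoxb, 0.16 for Hoxc and 0.00 for Hoxd, and 1, 2, 2 and 1 of their genes passed the adjusted p. All 9 Hoxb genes had a log2 fold change above 0, from 0.01 for Hoxb13, a gene of the tail and prostate, to 0.95 for Hoxb9. Hoxb2, a regulator of hindbrain segments, missed the threshold with 0.25 ± 0.07 (SE, adjusted p = 0.051), as did Hoxb5 with 0.23 ± 0.06 (SE, adjusted p = 0.051) and Hoxd4 with 0.22 ± 0.06 (SE, adjusted p = 0.053). The largest difference below 0 was that of Hoxd13, a gene of digits and genitalia, which had 6.74, 6.47 and 6.72 on the ASP arrays, 6.95, 6.77 and 6.68 on the ASP+CGP arrays, 6.78, 6.72 and 6.69 on the CGP arrays and 6.77, 6.76 and 6.81 on the CON arrays. Its ASP arrays lay below the CON arrays, at -0.14 ± 0.08 (SE, adjusted p = 0.39).

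**Figure D2:**
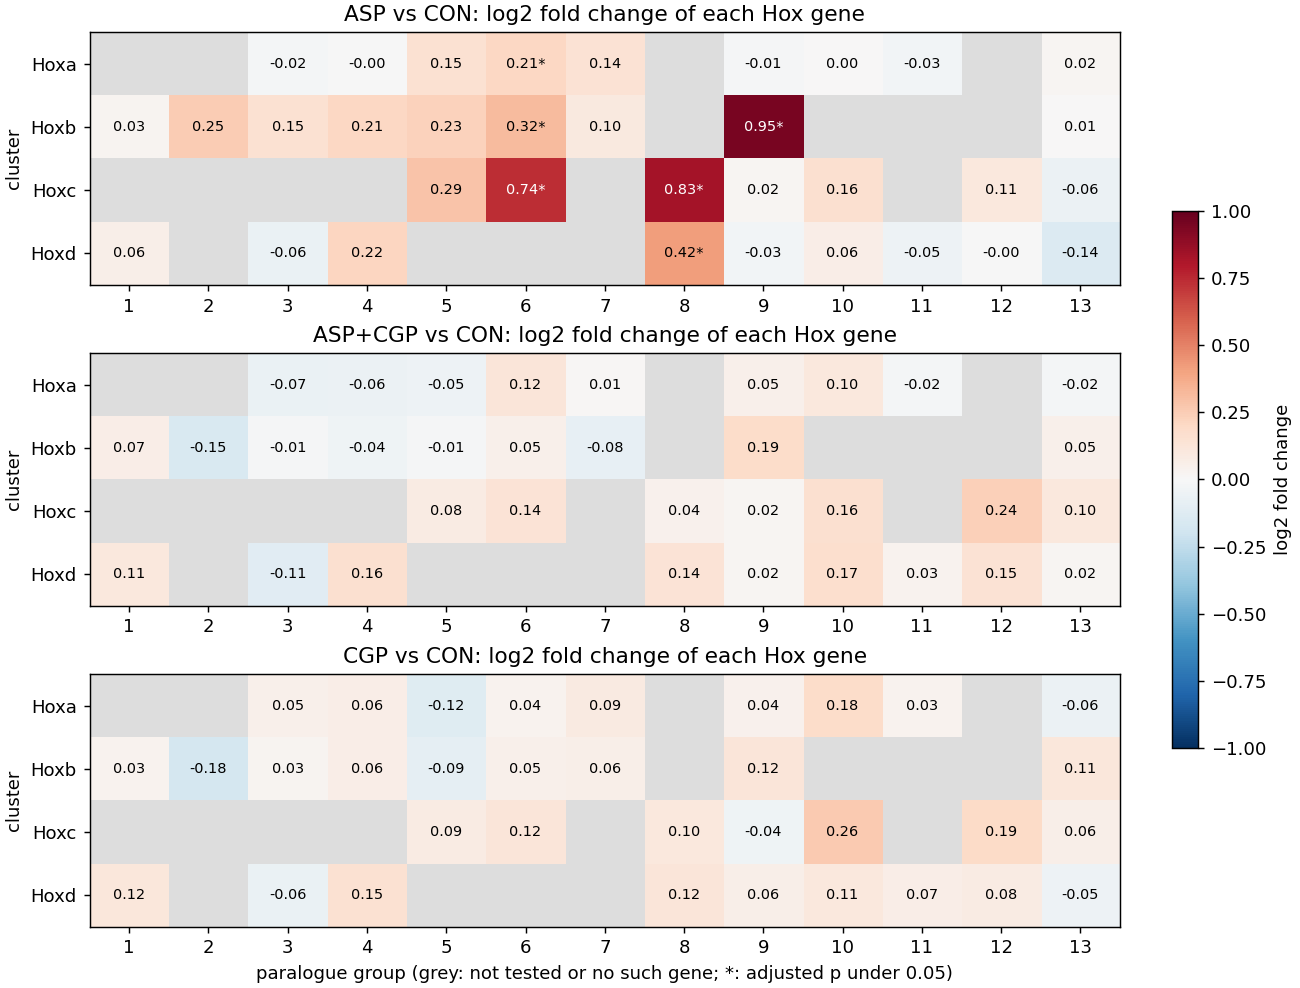
Log2 fold change of each kept Hox gene, a panel per contrast, with clusters a to d as rows and paralogue groups 1 to 13 as columns. Blank positions hold no kept gene. The highest values of ASP over CON were 0.95 for Hoxb9, 0.83 for Hoxc8 and 0.74 for Hoxc6, and the lowest was -0.14 for Hoxd13.

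Without a test, the arrays of ASP and CON did not overlap for 12 Hox genes, 11 higher and 1 lower in ASP, against 23.9% of all genes in either direction. Of all 17186 genes, 1706 were higher in ASP without overlap and 2396 lower. The ASP arrays stood above all 9 other arrays for 8 Hox genes (Hoxa6, Hoxb2, Hoxb5, Hoxb6, Hoxb9, Hoxc6, Hoxc8 and Hoxd8), against 4.37% of all genes, and below all of them for 0. The CON arrays stood below all others for Hoxd4 and Hoxd8. No Hox gene set the ASP+CGP pool or the CGP pool apart in this way. Shares over all genes were not taken for these counts, nor for ASP below the others, so nothing is read from them.

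Sequence upstream of members was read from RefSeq (GRCm38.p6), which gave promoters for 20 of the 35 members, 2 of them with several. None was available for the called genes Hoxb9, Hoxc8 and Hoxc6, nor for Hoxb2, Hoxb5, Hoxb6 and Hoxb7. The 250 bases before the start are shown for Hoxd8 and Hoxa6, which passed the adjusted p, and for Hoxd9, the neighbour of Hoxd8, whose log2 fold change was -0.03. The motifs searched, on both strands, were TGATTNAT, the site of Pbx and Hox dimers, AGGTCA, the core site of nuclear receptors, CCAAT, the site of the factor NF-Y, and TAAT, the short core of homeodomain sites, which a TGATTNAT match can contain. Capitals mark the first 3 and not TAAT, which is short and frequent. The promoter windows follow, in the direction of transcription.
Hoxd8, chr2:74704365-74704614, plus strand: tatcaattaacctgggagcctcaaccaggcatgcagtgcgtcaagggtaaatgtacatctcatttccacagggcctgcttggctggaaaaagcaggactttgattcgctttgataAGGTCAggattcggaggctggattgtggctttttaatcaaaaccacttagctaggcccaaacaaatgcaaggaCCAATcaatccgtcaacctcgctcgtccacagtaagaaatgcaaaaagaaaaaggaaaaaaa
Hoxa6, chr6:52208673-52208922, minus strand: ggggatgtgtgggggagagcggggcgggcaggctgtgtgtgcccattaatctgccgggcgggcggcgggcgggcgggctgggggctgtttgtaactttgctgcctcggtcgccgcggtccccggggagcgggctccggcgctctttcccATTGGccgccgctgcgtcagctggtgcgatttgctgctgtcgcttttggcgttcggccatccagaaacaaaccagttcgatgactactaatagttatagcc
Hoxd9, chr2:74697513-74697762, plus strand: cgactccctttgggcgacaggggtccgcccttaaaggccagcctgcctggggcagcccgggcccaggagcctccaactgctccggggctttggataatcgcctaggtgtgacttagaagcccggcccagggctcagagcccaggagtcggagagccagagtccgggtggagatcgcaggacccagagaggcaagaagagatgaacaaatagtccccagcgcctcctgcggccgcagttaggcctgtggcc
The Hoxd8 window held 1 AGGTCA and 1 CCAAT and the Hoxa6 window 1 CCAAT, on the opposite strand. The Hoxd9 window held neither. TAAT matched 2 times in the Hoxd8 window, 3 times in that of Hoxa6 and 1 time in that of Hoxd9. Of all 22 windows of members, 1 held TGATTNAT, 6 AGGTCA, 12 CCAAT and 16 TAAT, and of 32851 promoter windows of all genes 2.82%, 14%, 33.8% and 54.9% held them. A match is a description of letters and not a measured site.

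The antagonist alone was compared with control to ask what developmental NMDA receptor blockade left in the adult. Of the 34 Hox genes, 0 were called and 0 passed the adjusted p in limma, against 0.111% and 0.628% of all genes. An unadjusted p under 0.05 was reached by 6 Hox genes (17.6%), against 11.6% of all genes. The arrays of CGP and CON did not overlap for 7 Hox genes, 6 higher and 1 lower in CGP, against 19.4% of all genes in either direction. Of all 17186 genes, 2064 were higher in CGP without overlap and 1270 lower. The median log2 fold change was 0.06, against 0.01 over all genes.

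Hoxc10, a gene of lumbar levels, had the highest value in this comparison. It read 6.56, 6.42 and 6.29 on the ASP arrays, 6.49, 6.50 and 6.27 on the ASP+CGP arrays, 6.59, 6.37 and 6.61 on the CGP arrays and 6.10, 6.20 and 6.48 on the CON arrays, so that the pools overlapped. The log2 fold change of CGP over CON was 0.26 ± 0.10 (SE, adjusted p = 0.33). The lowest value was that of Hoxb2, with -0.18 ± 0.07 (SE, adjusted p = 0.31). For Hoxb9, Hoxc8 and Hoxc6 the differences of CGP from CON were 0.12, 0.10 and 0.12, and the 95% interval for Hoxb9 ran from -0.01 to 0.26, below the whole interval of ASP over CON (0.81 to 1.08).

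ASP+CGP was compared with CON to ask what both compounds together changed. Of the 34 Hox genes, 0 were called and 0 passed the adjusted p in limma, against 0.18% and 1.75% of all genes. The unadjusted p was under 0.05 for 6 Hox genes (17.6%), against 15.4% of all genes. The arrays of ASP+CGP and CON did not overlap for 7 Hox genes, 6 higher and 1 lower in ASP+CGP, against 17.3% of all genes in either direction. Of all 17186 genes, 1229 were higher in ASP+CGP without overlap and 1750 lower. The median log2 fold change of the Hox genes was 0.04.

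Hoxc12, a gene of the caudal end of the axis, was highest in this comparison, with 6.46, 6.45 and 6.77 on the ASP arrays, 6.73, 6.74 and 6.62 on the ASP+CGP arrays, 6.69, 6.68 and 6.55 on the CGP arrays and 6.44, 6.34 and 6.58 on the CON arrays. The ASP+CGP arrays lay above the CON arrays but within the range of the ASP arrays, and the log2 fold change over CON was 0.24 ± 0.08 (SE, adjusted p = 0.18). Hoxb2 was again the lowest, at -0.15 ± 0.07 (SE, adjusted p = 0.30). Hoxb9 came next to Hoxc12 with 0.19 ± 0.06 (SE, adjusted p = 0.17), while Hoxc8 and Hoxc6 differed from CON by 0.04 and 0.14.

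ASP was then set against ASP+CGP, which asks how aspartame exposure with and without the antagonist differed. This comparison uses the same ASP arrays as that with CON. Hoxb9, Hoxc8 and Hoxc6 were called higher in ASP, 3 of 34 genes against 1.27% of all genes in either direction and 1.24% higher. With Hoxb2, Hoxb5, Hoxb6, Hoxb7 and Hoxd8, 8 Hox genes passed the adjusted p, all higher in ASP, against 6.92% of all genes in either direction and 4.25% higher. The arrays of the 2 pools did not overlap for 13 Hox genes, all higher in ASP, against 27% of all genes in either direction. Of all 17186 genes, 2121 were higher in ASP without overlap and 2513 lower. The 13 include Hoxa5, which the filter kept only through ASP. The median over the 34 genes was 0.05. The 3 calls and Hoxb2 held when any single array was left out. The count at the adjusted p fell to 4 without ASP array 1, ASP array 3 or ASP+CGP array 2, and to 5 without ASP+CGP array 1.

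The log2 fold changes of ASP over ASP+CGP were 0.79 ± 0.06 for Hoxc8 (SE, adjusted p = 5.1e-07), 0.76 ± 0.06 for Hoxb9 (SE, adjusted p = 1.8e-06) and 0.60 ± 0.12 for Hoxc6 (SE, adjusted p = 0.0087). Hoxb2 followed, with 7.35, 7.24 and 7.38 on the ASP arrays, 6.87, 6.90 and 6.98 on the ASP+CGP arrays, 6.92, 6.73 and 7.03 on the CGP arrays and 7.05, 7.05 and 7.11 on the CON arrays. Its ASP arrays were the highest and its ASP+CGP and CGP arrays all lay below the CON arrays. The difference between ASP and ASP+CGP was 0.41 ± 0.07 (SE, adjusted p = 0.0017).

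Of the 8 Hox genes that passed here 5 belonged to the Hoxb cluster on chromosome 11. Hoxb5, a gene of cervical levels and of the enteric nervous system, had 6.92, 6.89 and 7.04 on the ASP arrays, 6.75, 6.62 and 6.74 on the ASP+CGP arrays, 6.71, 6.66 and 6.53 on the CGP arrays and 6.63, 6.78 and 6.74 on the CON arrays. Hoxb7, a gene of thoracic levels, had 7.17, 7.23 and 7.20 on the ASP arrays, 6.97 to 7.09 on the ASP+CGP arrays, 7.15, 7.11 and 7.21 on the CGP arrays and 7.03, 7.13 and 7.13 on the CON arrays. Hoxb5 was highest in ASP, whereas the Hoxb7 arrays of ASP and CGP overlapped. The differences between ASP and ASP+CGP were 0.25 ± 0.06 for Hoxb5 and 0.18 ± 0.05 for Hoxb7 (SE, adjusted p = 0.027 and 0.038). In the cluster as a whole 5 of 9 Hoxb genes passed, with a median of 0.25, against 0 of 9 Hoxa genes, 2 of 7 Hoxc genes and 1 of 9 Hoxd genes. The lowest value was that of Hoxc13, a gene of hair and tail, with 6.62, 6.46 and 6.51 on the ASP arrays, 6.81, 6.68 and 6.58 on the ASP+CGP arrays, 6.61, 6.60 and 6.73 on the CGP arrays and 6.51, 6.67 and 6.58 on the CON arrays, a difference of -0.16 ± 0.07 (SE, adjusted p = 0.19) between overlapping pools.

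Whether the effect of aspartame differed with the antagonist was tested directly by the interaction, the ASP effect in mice given CGP minus the ASP effect in mice not given it. It was below 0 for Hoxc8 (-0.89 ± 0.08, SE, adjusted p = 9.0e-06), Hoxb9 (-0.88 ± 0.09, SE, adjusted p = 2.2e-05), Hoxc6 (-0.72 ± 0.18, SE, adjusted p = 0.036) and Hoxd8 (-0.40 ± 0.10, SE, adjusted p = 0.035). The first 3 were called, against 1.5% of all genes in either direction and 1.35% below 0. The 4 genes at the adjusted p stand against 4.01% of all genes in either direction and 2.78% below 0. For Hoxc6 the call rested on a narrow margin, and it was lost without any 1 of ASP arrays 2 and 3, ASP+CGP arrays 1, 2 and 3, CGP arrays 1 and 3 and CON array 1, with adjusted p-values of 0.061 to 0.0996. Hoxd8 missed the adjusted p without any 1 of ASP arrays 1 and 3, ASP+CGP arrays 1 and 2, CGP arrays 1, 2 and 3 and CON array 1. The count at the adjusted p was then as low as 2, Hoxb9 and Hoxc8, which held when any single array was left out.

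The interaction of the remaining genes did not pass. Its highest value was 0.20 ± 0.11 for Hoxd13 (SE, adjusted p = 0.34), and its median over the 34 genes was -0.09. In groups 4 to 8 all 13 values were below 0, whereas 46.7% of all genes lay above 0. This count includes Hoxa5, which the filter kept only through ASP. It also uses the same ASP and CON arrays as the comparison of ASP with CON, so it is no separate support.

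**Figure D3:**
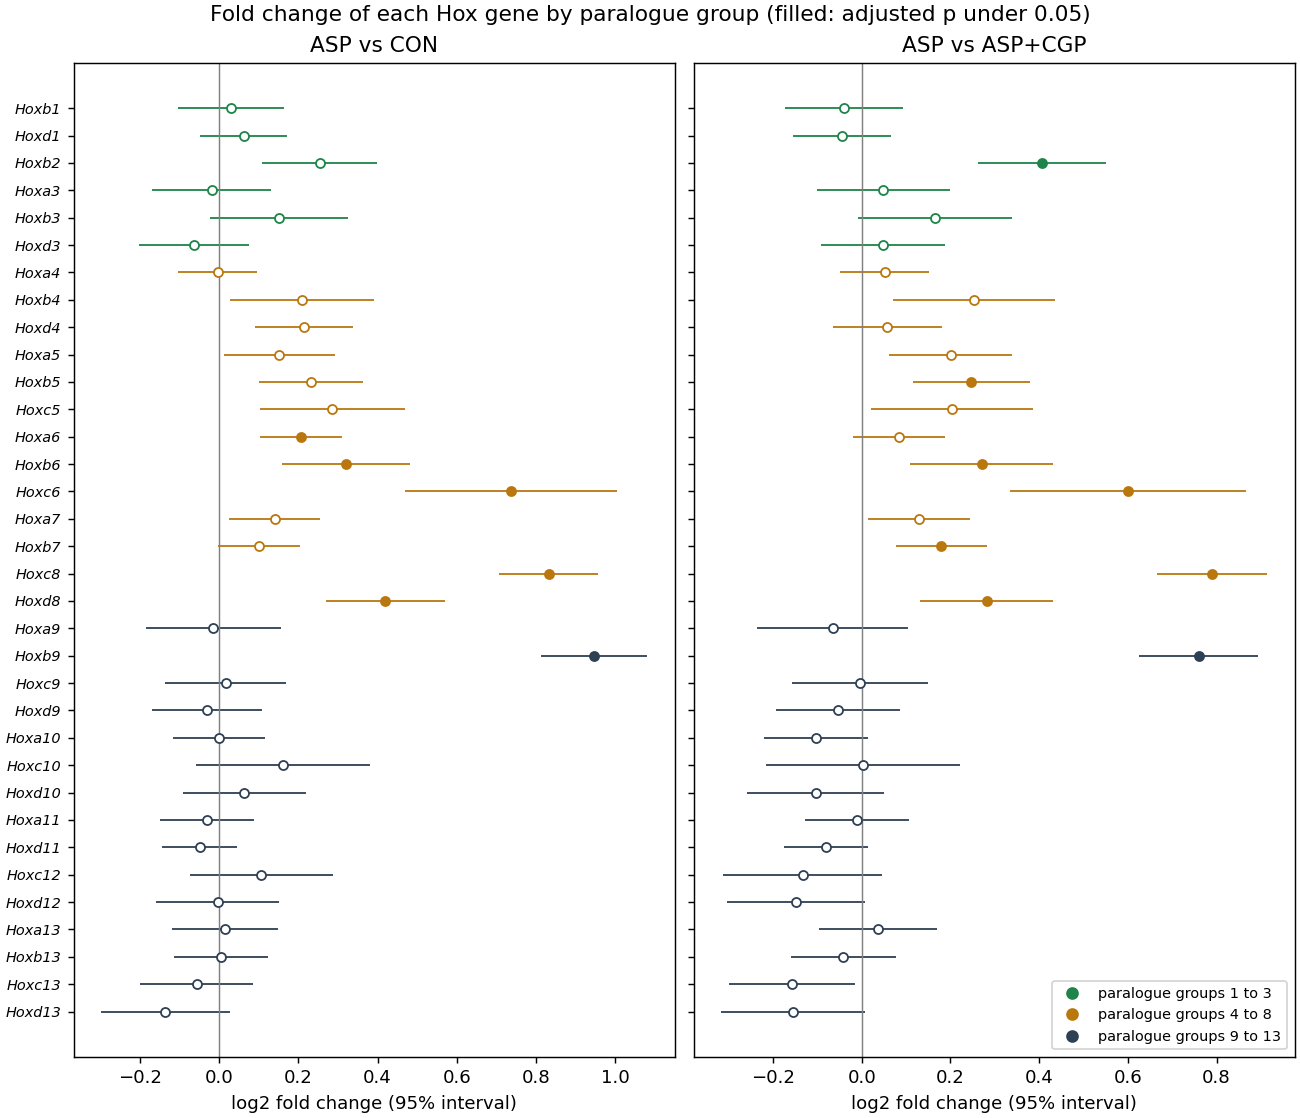
Log2 fold changes of Hox genes with their 95% intervals from limma, by contrast. For Hoxb9 the interval of ASP over CON was 0.81 to 1.08, and that of ASP over ASP+CGP was 0.63 to 0.89.

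Markers of other tissues moved with the same pool. Of 11 measured adrenal cortex markers 11 were called higher in ASP than in CON, with a median log2 fold change of 3.61, and the mean level of the list was 10.22 to 10.26 on the ASP arrays, 6.82 to 6.86 on the ASP+CGP arrays, 6.84 to 6.87 on the CGP arrays and 6.79 to 6.87 on the CON arrays. Hsd3b1 and Mc2r, a steroid dehydrogenase and the receptor for corticotropin, were under 6 on all 9 arrays outside ASP. The filter kept both only through ASP, so their calls are no support. All 7 adrenal medulla markers passed the adjusted p and 5 were called, at 10.24 to 10.29 on the ASP arrays, 9.01 to 9.07 on the ASP+CGP arrays, 9.10 on each of the CGP arrays and 9.04 to 9.19 on the CON arrays.

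Adipose and pancreatic markers were likewise high in ASP. Of 13 adipose markers 13 passed and 12 were called. The list mean was 8.87 to 8.91 in ASP, 6.80 to 6.83 in ASP+CGP, 6.80 to 6.86 in CGP and 6.77 to 6.82 in CON. Adipoq, Fabp4, Lep and Cd36 were under 6 on all 9 arrays outside ASP, so the filter kept them only through ASP. Their place in these counts is no support. All 7 exocrine pancreas markers were called, but the filter kept Zg16 and Cpb1 only through ASP. Zg16 was under 6 on all 9 arrays outside ASP and Cpb1 on 8 of them. The list mean was 8.36 to 8.51 in ASP, 6.62 to 6.70 in ASP+CGP, 6.69 to 6.72 in CGP and 6.57 to 6.66 in CON. Beside these, the mean of Hoxb9, Hoxc8 and Hoxc6 was 7.56 to 7.66 on the ASP arrays, 6.86 to 6.92 on the ASP+CGP arrays, 6.79 to 6.96 on the CGP arrays and 6.65 to 6.83 on the CON arrays. The part of these markers in the Hox results was not tested, and in pooled bulk RNA more cells of a type and more Hox RNA per cell cannot be told apart.

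Pituitary markers and some blood and lymphoid markers differed between the pools as well. Pituitary markers passed in 7 of 8 cases in ASP against CON, with list means of 10.49 to 10.52 in ASP, 8.25 to 8.50 in ASP+CGP, 10.35 to 10.39 in CGP and 9.50 to 9.68 in CON, so that they were also high in the CGP pool. Of 6 blood and lymphoid markers Cd74, H2-Ab1 and H2-Aa, which serve antigen presentation, were called higher in ASP. The others did not pass, with log2 fold changes of -0.20 for Alas2, 0.08 for Cd79a and 0.05 for Ptprc. Their limma adjusted p-values were 0.14, 0.74 and 0.70. The list means were 8.04 to 8.17 in ASP, 7.23 to 7.30 in ASP+CGP, 7.41 to 7.52 in CGP and 7.37 to 7.47 in CON. Kidney markers passed in 0 of 5 cases, at 7.02 to 7.04 in ASP, 7.03 to 7.10 in ASP+CGP, 7.10 to 7.22 in CGP and 6.98 to 7.11 in CON.

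Hindbrain and spinal cord markers are listed because these are the parts of the nervous system that use Hox genes. In ASP against CON 2 of 13 were higher (Slc6a4 and Phox2a) and 3 lower (Slc6a5, Tph2 and Glra1) at the adjusted p. Slc6a5, the glycine transporter of spinal and brainstem neurons, had a log2 fold change of -1.43 ± 0.08 (SE, adjusted p = 3.6e-08), and Slc6a4, the serotonin transporter, had 0.50 ± 0.06 (SE, adjusted p = 1.2e-04). The 3 lower genes were also below CON in CGP and in ASP+CGP. The values were -2.03 and -1.91 for Slc6a5, -0.43 and -0.32 for Tph2 and -0.24 and -0.24 for Glra1. All passed the adjusted p except Tph2 in ASP+CGP. Slc6a4 (-0.12 and -0.09) and Phox2a (0.13 and 0.07) passed in neither. The list mean was 7.64 to 7.68 on the ASP arrays, 7.56 to 7.61 on the ASP+CGP arrays, 7.55 to 7.59 on the CGP arrays and 7.72 to 7.78 on the CON arrays, and the median log2 fold change of its 13 genes in ASP against CON was 0.01.

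The remaining lists were those of meninges and fibroblasts, where 1 of 8 genes was higher and 2 lower in ASP than in CON at the adjusted p, cerebellum, where 1 of 6 was higher, and hypothalamus, where 2 of 19 were higher and 7 lower. The means of the meninges and fibroblast list were 8.45 to 8.48 in ASP, 8.16 to 8.23 in ASP+CGP, 8.40 to 8.45 in CGP and 8.42 to 8.51 in CON. The means of the cerebellum list were 8.18 to 8.26 in ASP, 8.51 to 8.64 in ASP+CGP, 8.26 to 8.32 in CGP and 8.09 to 8.15 in CON. The means of the hypothalamus list were 9.96 to 9.98 in ASP, 9.82 to 9.83 in ASP+CGP, 9.94 to 9.97 in CGP and 10.03 to 10.12 in CON.

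**Figure D4:**
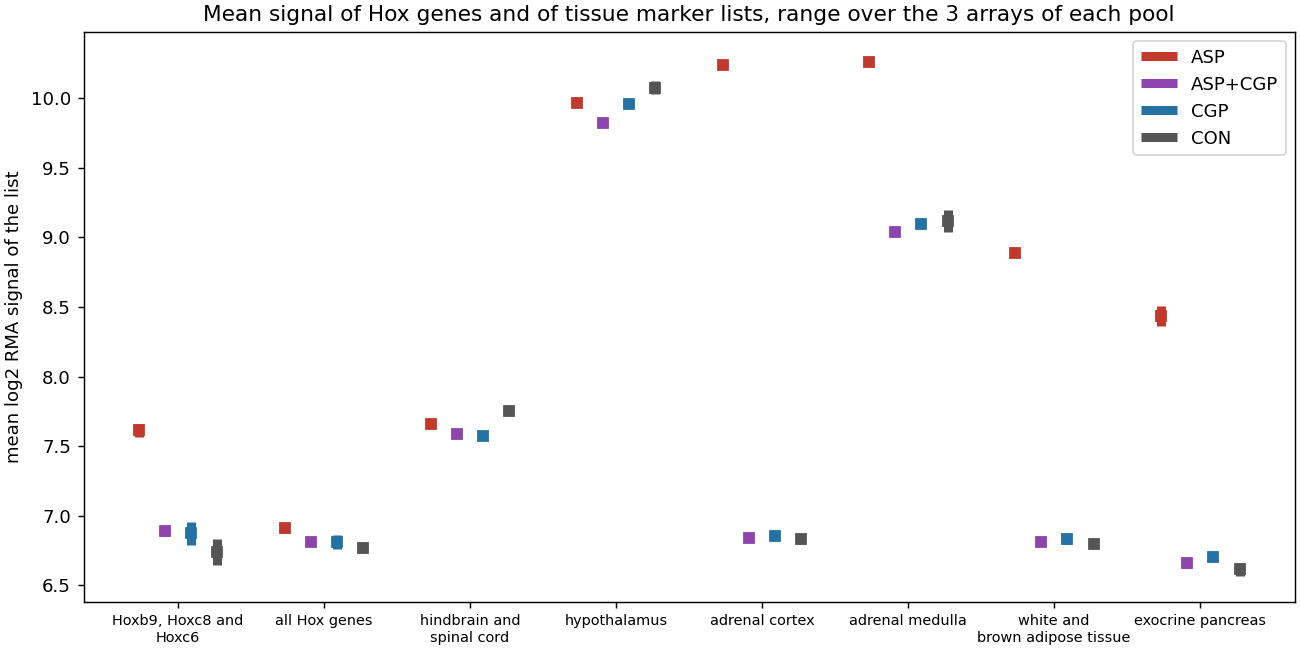
Mean log2 signal of gene lists in each pool. Bars span the lowest to the highest of the 3 arrays and squares mark the middle of that range. The mean of Hoxb9, Hoxc8 and Hoxc6 was 7.56 to 7.66 on the ASP arrays, and the adrenal cortex mean was 10.22 to 10.26. Levels of different lists are not comparable, since probes differ.

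The partners and regulators of Hox genes moved little. Hox proteins bind DNA together with Pbx and Meis cofactors. Of 8 measured cofactors, Meis2 alone passed in ASP against CON, with 0.32 ± 0.05 (SE, adjusted p = 0.0021), and Meis1 and Meis2 passed in ASP against ASP+CGP, with 0.20 and 0.21. Of 12 upstream regulators of Hox genes, among them genes of retinoic acid metabolism and of the caudal pathway, 0 passed in ASP against CON. Aldh1a2, which makes retinoic acid, was lower in ASP+CGP than in CON (-0.31 ± 0.06, SE, adjusted p = 0.010) and higher in ASP than in ASP+CGP (0.35 ± 0.06, SE, adjusted p = 0.0012).

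Of 18 chromatin regulators of the Polycomb and trithorax groups, which keep Hox genes silent or active, Kdm6b alone passed in any of the 5 contrasts, with 0.17 ± 0.04 in ASP against ASP+CGP (SE, adjusted p = 0.033). Of 12 ParaHox and anterior homeobox genes, which act in front of the Hox domain or beside the clusters, Gbx2 passed in ASP against CON (0.26 ± 0.05, SE, adjusted p = 0.0040). Gbx2 and Otx2 passed in CGP against CON, and Otx2, Gbx2, En1 and En2 in ASP+CGP against CON, all higher than CON. Otx2 and En2 passed in ASP against ASP+CGP, both lower in ASP. None of the genes on these 4 lists reached the fold threshold.

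Of 12 noncoding RNAs listed from the clusters 4 were measured, and 0 passed the adjusted p in any contrast. Mir196b, whose sequence is given above, had 6.70, 6.58 and 6.81 on the ASP arrays, 6.69, 6.77 and 6.94 on the ASP+CGP arrays, 6.87, 6.74 and 6.87 on the CGP arrays and 6.65, 6.72 and 6.74 on the CON arrays. Mir196a-2 had 6.29, 6.38 and 6.38 on the ASP arrays, 6.37, 6.50 and 6.63 on the ASP+CGP arrays, 6.47, 6.39 and 6.32 on the CGP arrays and 6.16, 5.91 and 6.61 on the CON arrays. All pools overlapped with CON in both, and the differences of ASP from CON were -0.01 ± 0.07 and 0.13 ± 0.13 (SE). Mir615 differed by 0.14 ± 0.08 and Hottip, a long noncoding RNA at the 5′ end of the Hoxa cluster, by -0.03 ± 0.08 (SE). The arrays carry probes to these loci in total RNA, so that precursor and mature forms were not told apart. Spans of some neighbouring genes overlap in RefSeq (Hoxa3 with Hoxa4, Hoxa5 and Hoxa6, Hoxb3 with Hoxb4, Hoxd3 with Hoxd4, and Hoxd10 with Hoxd11), so their signals are not fully separate.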

How the data were processed

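The authors hybridized pooled hypothalamic RNA to Mouse Gene 1.0 ST arrays and deposited log2 signals per probe set, made in Partek by RMA (background correction, quantile normalization and median polish).

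A probe set entered when it had 1 gene symbol and reached a signal of 6 on 3 or more arrays, and where a gene had several, that with the highest mean stood for it. limma 3.58.1 in R 4.3.3 (lmFit, eBayes) was fitted to all 12 arrays with a mean per group, leaving 8 residual degrees of freedom, to which moderation added 5.43. The contrasts compared ASP against CON, CGP against CON, ASP+CGP against CON, ASP against ASP+CGP and the interaction, each adjusted by Benjamini-Hochberg over 17186 genes. The fit was tested on simulated data. Values after ± are SDs over arrays for signals and SEs for fold changes.

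Described in full were called Hox genes and the largest rise and fall of each contrast. Hox genes at an adjusted p under 0.05 were added. The members and all gene lists were chosen with earlier results of these data known, so list counts are descriptions. As alternatives, the signal filter, probe set rule, normalization, test, adjustment and fold threshold were changed 1 at a time, replicate numbers were used as a block, and each array was left out. Deviations of same-numbered arrays correlated at -0.11 to 0.54, over 0.1 in 6 of 18 pairs of arrays, which included all 3 pairs of ASP+CGP with CON (0.17, 0.26 and 0.54). Array 1 of ASP+CGP with array 2 of CON, differently numbered, reached 0.42. The labels do not say what a number shares.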

Additional observations from a re-analysis of the deposited data

Results flagged for a closer look

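The difference of the aspartame pool from its counterpart was not the same with and without the antagonist for 4 Hox genes, by the limma test of that contrast. Each group is 1 pool, so the test sets single pools against the spread of arrays and does not measure the spread of mice. The ASP effect with CGP minus the ASP effect without it was -0.89 on the log2 scale for Hoxc8 (adjusted p = 9.0e-06), -0.88 for Hoxb9 (adjusted p = 2.2e-05), -0.72 for Hoxc6 (adjusted p = 0.036) and -0.40 for Hoxd8 (adjusted p = 0.035). With 3 arrays a pool, single outlying values of a gene were not tested for.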

How the results depend on the processing

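The alternatives were run on the counts, the medians and the values of Hox genes that passed the adjusted p or were highest or lowest in a contrast, and none of these changed direction. Values close to 0, such as those of Hoxa9, Hoxc9 and Hoxd9, were not among them. Of the counts of Hox genes under the alternatives 230 stayed within 1.5 times the value given and 20 did not, and 97 medians moved by less than the SD between arrays of a pool while 3 moved by more. Without a fold threshold 6 Hox genes were called in ASP against CON and 8 in ASP against ASP+CGP, and with a threshold of 1.2 there were 5 and 6, against 3 in each. Counts at an adjusted p under 0.05 alone, and the fit without ASP+CGP array 3 and CON array 3, were added after seeing the data. A signal of at least 7 on 3 arrays leaves 13 Hox genes. Counts at the adjusted p were then 3 in ASP against CON, 4 in ASP against ASP+CGP and 2 in the interaction. Each of these counts includes Hoxc8, which was under 7 on every array outside ASP. That filter kept Hoxc8 only through ASP, so its place in them is no support. The interaction also kept 2 with a signal of at least 6 on all 12 arrays, since Hoxc6 and Hoxd8 then drop out. Without moderation of the spread 4 passed in ASP against ASP+CGP and 2 in the interaction. Leaving out each array in turn gave 4 to 10 in ASP against ASP+CGP and 2 to 4 in the interaction. The median in ASP against CON ran from 0.058 to 0.13 over these fits and that of the interaction from -0.13 to -0.074, with 0.13 and -0.13 without CON array 3. Without both doubted arrays the median of ASP against CON was 0.13 and the same 3 genes were called.

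Over all pools the same-numbered arrays did not deviate together throughout, but those of ASP+CGP and CON did. This was not particular to a shared number. Array 1 of ASP+CGP with array 2 of CON reached 0.42, and array 2 of ASP+CGP with array 1 of CON reached 0.25. A replicate block in a fit of these 2 pools alone, added after seeing the data, gave 0 Hox genes called and 0 at the adjusted p, as without it. With a replicate block over all 12 arrays the calls were 3 in ASP against CON, 3 in ASP against ASP+CGP and 2 in the interaction, where Hoxc6 missed the threshold (adjusted p = 0.053). The Hoxc6 interaction also missed it without moderation (adjusted p = 0.15) and without both doubted arrays (adjusted p = 0.069), and its ASP against ASP+CGP call missed it without moderation (adjusted p = 0.065), within a range of 0.053 to 0.15 for the alternatives that lost a Hoxc6 call. Hoxd8 passed the fold threshold in ASP against CON without the second ASP array, at 0.50. The cause of these shifts was not tested. Precision is limited by having 3 arrays of a single pool a group, and most Hox signals lay near the low end.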
